A study of Bos taurus with 28 samples.

Results

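The enzymes described here build cholesterol from acetyl-CoA: HMGCS1, IDI1, FDPS, SQLE, LSS, TM7SF2, MSMO1, NSDHL and DHCR7. They were taken as every probe set, a group of short oligonucleotides that together measure 1 transcript, whose platform annotation gives exactly 1 gene symbol from this list. That rule found 11 of the 24016 probe sets on the array that are not controls, and they stand for 8 of the 9 enzymes. IDI1, the isomerase that turns isopentenyl diphosphate into its reactive partner, is not listed in the annotation used and is not analysed here. HMGCS1 has 2 probe sets, LSS has 3 and each other enzyme has 1.

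The samples were surgical biopsies of the mammary gland from 28 mid-lactation Holstein-Friesian cows, all on the same ration of maize silage, grass silage and concentrates, which the labels call the control diet. The platform was the Affymetrix Bovine Genome Array, with 1 array for each cow. Cows were grouped by their genotype at DGAT1, the gene of the enzyme that adds the last fatty acid in triacylglycerol synthesis: 4 KK cows carry lysine on both alleles, 13 KA cows carry lysine and alanine, and 11 AA cows carry alanine on both alleles. The design addressed which mammary transcripts differ with this polymorphism.

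Cholesterol synthesis starts in the cytosol with the mevalonate steps, passes through the isoprenoid diphosphates to squalene, and ends with the trimming of lanosterol to cholesterol in the endoplasmic reticulum. The genes of nearly every step are switched on together by the sterol regulatory element-binding proteins, which INSIG proteins hold back when membranes are rich in sterol. In the lactating gland the same family of factors also acts on genes of fatty acid synthesis, and cholesterol leaves the cell in the membrane that wraps each milk fat globule.

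Each probe set's deposited value is a log2 difference from a baseline that no source used here describes, so a value of 1 is a doubling over that baseline, and levels of different probe sets cannot be compared. A coarse class of signal could still be read from the rounding of the values, and it was bright (log2 of 8 or more) for HMGCS1, SQLE, LSS, MSMO1 and NSDHL and intermediate (log2 between 4 and 8) for FDPS, TM7SF2 and DHCR7, each through its brightest probe set. All 7 milk protein genes and all 8 milk fat globule genes measured were bright, against 23.1% of all 9155 genes. So were 5 of 8 luminal epithelium genes, 7 of 11 fibroblast and matrix genes and 6 of 8 myoepithelium and smooth muscle genes. Of 5 adipocyte genes 0 were bright, too few genes to set against the 23.1%.

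Among the 28 arrays, those of the cows AA 2 and AA 9 lay far from the rest. Across probe sets the SD was 0.86 on AA 2 and 0.78 on AA 9, against 0.21 to 0.35 on the 26 others. Over the milk fat globule genes they averaged -3.28 and -4.02, against -0.41 to 0.34, and over the 11 fibroblast and matrix genes 1.22 and 1.69, against -0.53 to 0.41. Luminal epithelium genes were also higher on both, with means of 0.82 and 0.84 over 8 genes, against -0.52 to 0.47. The mean over milk protein genes was -0.67 for AA 2 and -1.65 for AA 9, and lay between -0.29 and 0.09 for the other cows. The difference between 3′ and 5′ control probe sets, a measure of RNA integrity, departed in opposite directions on these arrays. It was 0.60 on AA 2, above the range of -0.32 to 0.34 on the others, and -0.44 on AA 9, below that range. The results on the enzymes are therefore given with and without this pair. In bulk tissue, fewer cells of a type and less RNA per cell cannot be told apart. The array numbers in the titles also go with genotype: numbers 29 to 42 hold 4 KK, 2 KA and 8 AA cows, and 43 to 56 hold 0 KK, 11 KA and 3 AA cows.

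Averaged over the 8 enzymes, the values were 0.20 ± 0.32 in KK cows, 0.11 ± 0.22 in KA cows and -0.28 ± 0.47 in AA cows (SD, n = 4, 13 and 11), and the AA mean without AA 2 and AA 9 was -0.09 ± 0.26 (SD, n = 9). No enzyme passed the test in any comparison of the genotypes over all 28 cows. By cow, the mean ran from -0.22 to 0.54 in KK, from -0.26 to 0.53 in KA and from -1.19 to 0.41 in AA, so the genotypes overlapped. The lowest values of all cows were those of AA 9 (-1.19), AA 2 (-1.02) and AA 10 (-0.59). AA 9 was among the 2 lowest cows for 8 of 8 enzymes, AA 2 for 5 and AA 10 for 3. KK 4, at -0.22, was the lowest KK cow, and the other KK cows had 0.32, 0.54 and 0.17.

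**Figure D1:**
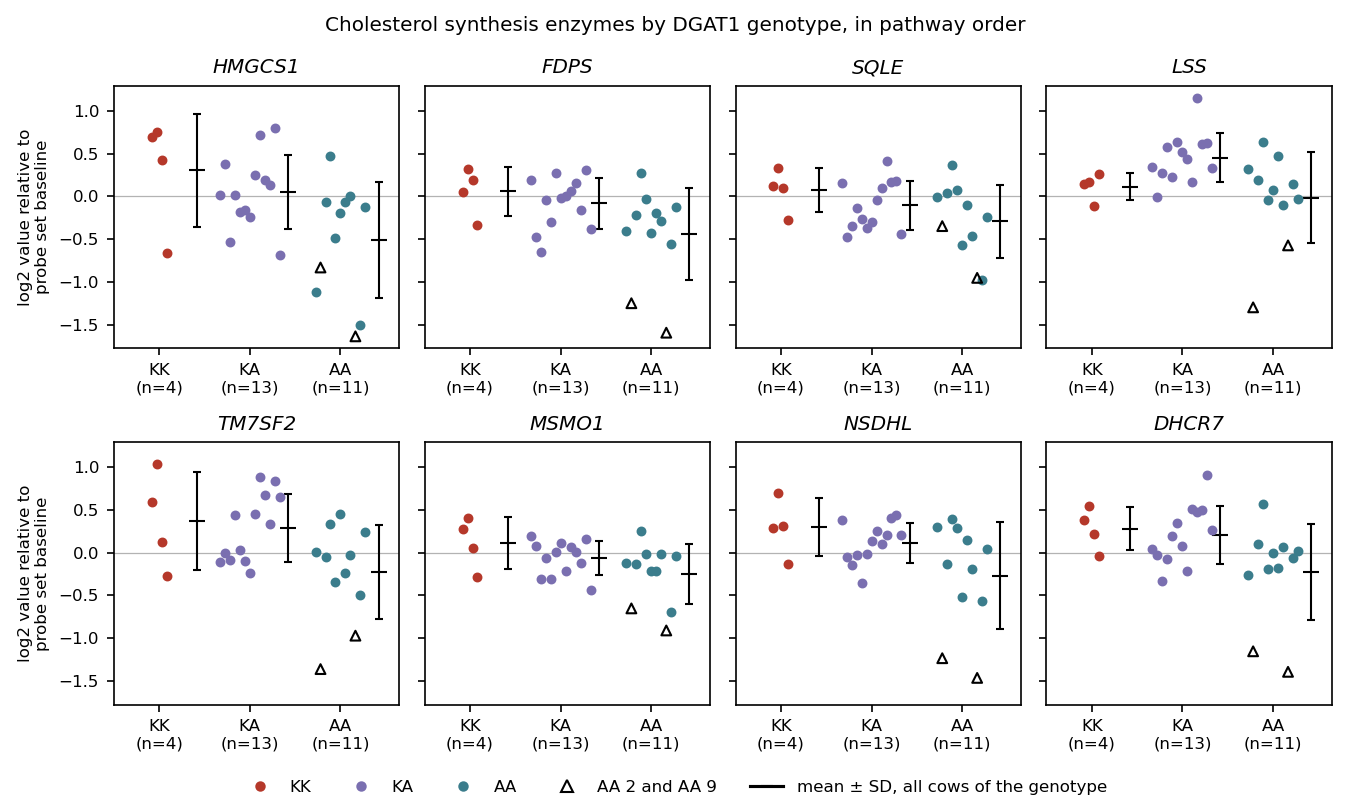
Log2 value relative to the probe set's baseline (y axis) of 8 cholesterol synthesis enzymes in pathway order, 1 point per cow, for KK (n = 4), KA (n = 13) and AA (n = 11) cows; the bar beside each group is its mean ± SD and open triangles are the cows AA 2 and AA 9. The KK mean lies above the AA mean in every panel, and in the LSS panel the KA mean of 0.45 lies above both.

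At the entry to the pathway stands HMGCS1, the cytosolic synthase that joins acetyl-CoA to acetoacetyl-CoA. Its brighter probe set, Bt.22763.2.S1_a_at, had values of 0.69, 0.76, 0.43 and -0.66 in the 4 KK cows. KA cows ran from -0.69 through a median of 0.02 to 0.80, and AA cows from -1.64 through -0.19 to 0.48. KK 1 and KK 2 lay above all AA cows, whereas KK 4 lay within the lower part of the AA range, so the genotypes overlapped. The HMGCS1 means were 0.31 ± 0.66 in KK, 0.06 ± 0.43 in KA and -0.50 ± 0.68 in AA (SD), and -0.34 ± 0.61 in the 9 AA cows without AA 2 and AA 9.

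The fitted slope of HMGCS1 was 0.44 ± 0.15 (SE) per K allele, the steepest of the 8 enzymes, with an adjusted p of 0.526 (limma, Benjamini-Hochberg over all 24016 probe sets). Without AA 2 and AA 9 it was 0.34 ± 0.14. The KK minus AA difference was 0.81 ± 0.32 over all cows (adjusted p = 0.909, limma) and 0.65 ± 0.30 without the pair, and the KA minus AA difference was 0.56 ± 0.22 (adjusted p = 0.176) and 0.40 ± 0.21. The second HMGCS1 probe set, Bt.22763.1.S1_at, spread more widely among KK cows, with 1.74, 1.47, -0.14 and -0.62. Its slope was 0.53 ± 0.18 per K allele (adjusted p = 0.526, limma) and 0.46 ± 0.19 without the pair. Across the 26 other cows both HMGCS1 probe sets varied together (r = 0.83, rho = 0.84).

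FDPS, the synthase that makes farnesyl diphosphate, the branch point to squalene and to the isoprenoids of prenylated proteins, had values of 0.06, 0.32, 0.19 and -0.33 in KK cows. The KA range was -0.64 to 0.31 with a median of -0.01, and the AA range was -1.59 to 0.28 with a median of -0.28. AA 9 (-1.59) and AA 2 (-1.25) were the lowest cows, and the 9 other AA cows began at -0.56. The slope of FDPS was 0.28 ± 0.11 per K allele (adjusted p = 0.526, limma) over all cows and 0.14 ± 0.08 without the pair. Its KK minus AA difference was 0.50 ± 0.23 with the pair and 0.28 ± 0.16 without it.

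SQLE, the squalene epoxidase that puts the first oxygen on the sterol skeleton and is a control point of the pathway, was at 0.12, 0.34, 0.10 and -0.28 in KK cows. KA cows spanned -0.47 to 0.42 (median -0.13) and AA cows -0.98 to 0.37 (median -0.24). The lowest SQLE value was that of AA 10 (-0.98), with AA 9 next at -0.95, while AA 2, at -0.35, lay inside the KA range. The slope was 0.18 ± 0.09 per K allele (adjusted p = 0.526, limma) and 0.13 ± 0.09 without AA 2 and AA 9, the KK minus AA difference of SQLE was 0.36 ± 0.19 and 0.28 ± 0.19, and the KA minus AA difference was 0.19 ± 0.14 and 0.11 ± 0.13.

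LSS, the cyclase that folds oxidosqualene into lanosterol, followed another order. Its brightest probe set, Bt.22285.2.S1_at, was at 0.15, 0.17, -0.12 and 0.26 in KK cows. KA cows ran from -0.01 through a median of 0.44 to 1.15, and AA cows from -1.30 through 0.08 to 0.64. All 4 KK cows lay below the KA median, and KK 4, the lowest KK cow for the other 7 enzymes, was the highest for LSS. The LSS means were 0.12 ± 0.16 in KK, 0.45 ± 0.29 in KA and -0.02 ± 0.53 in AA (SD), and the mean of the 9 AA cows without the pair was 0.19 ± 0.25.

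The KA minus AA difference of LSS, 0.47 ± 0.16, had the smallest adjusted p of the 8 enzymes in that comparison (0.141, limma), and it was 0.27 ± 0.11 without AA 2 and AA 9 (adjusted p = 0.428, limma). The LSS slope was 0.17 ± 0.11 per K allele and 0.03 ± 0.08 without the pair, and its KK minus AA difference of 0.13 ± 0.22 became -0.07 ± 0.15. KA cows lay 0.40 ± 0.15 above the midpoint of KK and AA (adjusted p = 0.445, limma), and 0.30 ± 0.10 above it without the pair (adjusted p = 0.276). The KK minus KA difference of LSS was -0.34 ± 0.22, with a 95% interval from -0.78 to 0.10, and from -0.63 to -0.04 without the pair, where its adjusted p was 0.786 (limma) and 2.91% of genes were lower at an unadjusted p under 0.05.

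Of the other LSS probe sets, Bt.17801.1.A1_at also had its highest mean in KA cows. Its mean in the 9 AA cows without the pair was -0.07, again between the KK and KA means. On Bt.22285.1.A1_at the KK and KA means were nearly equal. Bt.17801.1.A1_at averaged -0.17 ± 0.20 in KK, 0.05 ± 0.19 in KA and -0.15 ± 0.23 in AA cows, and Bt.22285.1.A1_at averaged 0.09 ± 0.33, 0.09 ± 0.27 and -0.01 ± 0.29 (SD). Both are of the intermediate class. Over the 26 cows the correlation between LSS probe sets was 0.29, 0.22 and 0.09 (Pearson), with adjusted permutation p-values of 0.184, 0.322 and 0.678, so the values of LSS depend on which probe set is read.

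**Figure D2:**
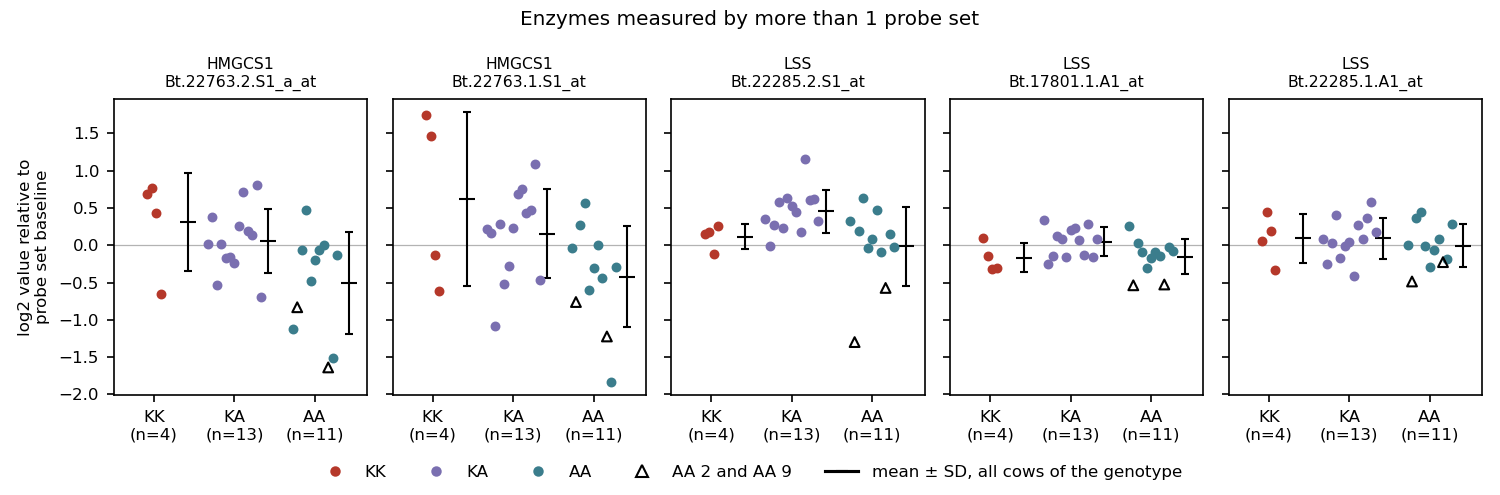
Log2 value relative to baseline (y axis) of the 2 HMGCS1 and 3 LSS probe sets, 1 point per cow, for KK (n = 4), KA (n = 13) and AA (n = 11) cows, with the mean ± SD beside each group and open triangles for AA 2 and AA 9. Both HMGCS1 probe sets have the order KK, KA, AA in their means, and the KA mean of LSS is at 0.45 on the first LSS probe set and at 0.05 and 0.09 on the others.

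TM7SF2, a reductase of the C-14 double bond left when lanosterol is demethylated, had 0.60, 1.04, 0.13 and -0.28 in KK cows, the widest KK range after HMGCS1. KA cows spanned -0.24 to 0.88 (median 0.34) and AA cows -1.36 to 0.45 (median -0.05). KK 1 and KK 2 lay above all AA cows and KK 4 below every KA cow. The slope of TM7SF2 was 0.35 ± 0.13 per K allele (adjusted p = 0.526, limma) over all cows and 0.22 ± 0.11 without the pair. Its KA minus AA difference was 0.51 ± 0.19 (adjusted p = 0.160, limma) and 0.30 ± 0.16 without AA 2 and AA 9.

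MSMO1, the oxidase that begins removal of the methyl groups at carbon 4, was at 0.27, 0.41, 0.06 and -0.28 in KK cows. It ranged from -0.44 to 0.20 in KA cows (median 0.00) and from -0.91 to 0.26 in AA cows (median -0.13). The MSMO1 slope of 0.18 ± 0.07 per K allele (adjusted p = 0.526, limma) was 0.11 ± 0.07 without the pair, and the KK minus AA difference was 0.36 ± 0.16 with the pair and 0.25 ± 0.14 without it.

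NSDHL, the dehydrogenase that takes over from MSMO1 in the same demethylation, was at 0.29, 0.70, 0.32 and -0.13 in KK cows, with a KA range of -0.36 to 0.44 (median 0.13) and an AA range of -1.47 to 0.39 (median -0.13). KK 2 lay above every other cow, and AA 9 (-1.47) and AA 2 (-1.24) lay below every other cow. The slope of NSDHL was 0.31 ± 0.11 per K allele (adjusted p = 0.526, limma) and 0.16 ± 0.08 without the pair. Its AA mean was -0.27 ± 0.62 in all 11 AA cows and -0.03 ± 0.35 in the 9 without the pair (SD), the largest such shift of the 8 enzymes.

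DHCR7, the reductase that acts on the immediate precursor of cholesterol, closes the pathway. It had values of 0.39, 0.55, 0.22 and -0.04 in KK cows, a KA range of -0.33 to 0.92 (median 0.19) and an AA range of -1.39 to 0.57 (median -0.06). The highest DHCR7 value was that of KA 12 and the highest AA value, that of AA 4, exceeded all KK values. The slope was 0.30 ± 0.12 per K allele (adjusted p = 0.526, limma) and 0.15 ± 0.08 without the pair, and the KA minus AA difference of DHCR7 was 0.43 ± 0.17 (adjusted p = 0.176) and 0.20 ± 0.12.

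**Figure D3:**
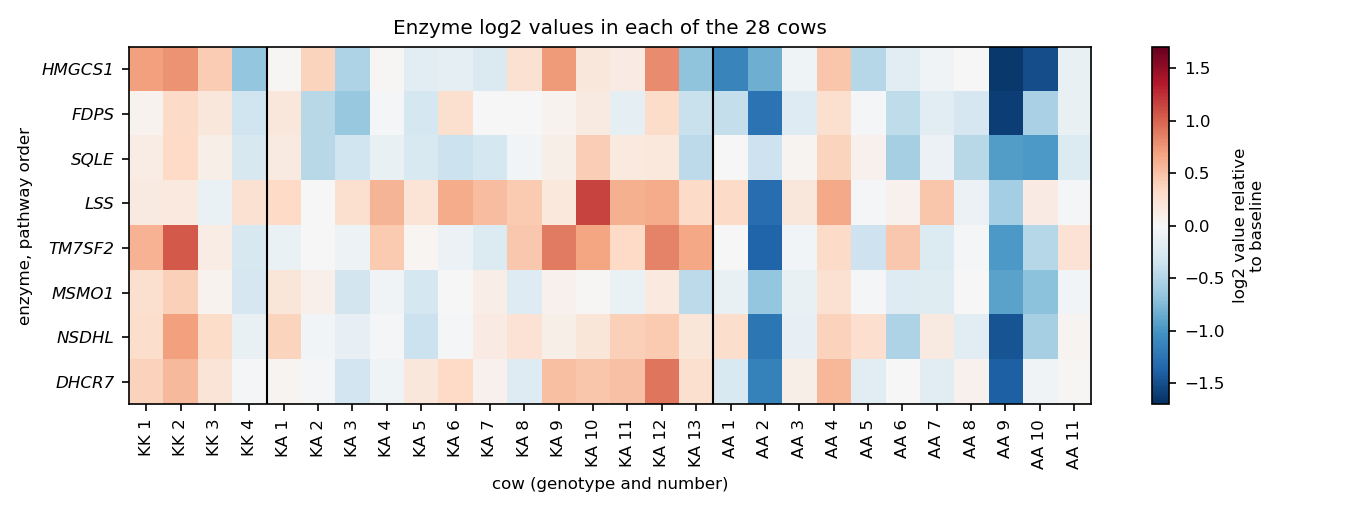
Log2 value relative to baseline (colour, red above and blue below 0) of the 8 enzymes (rows, pathway order) in each of the 28 cows (columns, KK then KA then AA). AA 2, AA 9 and AA 10 form the bluest columns, with enzyme means of -1.02, -1.19 and -0.59, and KK 4 differs in colour from the other KK cows in every row but LSS.

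Over the whole pathway, 8 of 8 slopes per K allele were positive, as were 50.0% of the slopes of all 9155 genes, and their median was 0.29 against 0.00 for all genes. No enzyme passed an adjusted p of 0.05 (limma), and neither did any other gene (0.00%). At an unadjusted p under 0.05, 6 of 8 enzymes had a positive slope, against 4.29% of all genes. Without AA 2 and AA 9 the median was 0.14, 8 of 8 slopes stayed positive (53.4% of all genes), and 1 of 8, HMGCS1, had an unadjusted p under 0.05 (1.64% of all genes). No adjusted p was under 0.05 there either (0.00% of genes, limma).

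The KK minus AA differences were positive for 8 of 8 enzymes (48.8% of genes), with a median of 0.50, and 6 of 8 had an unadjusted p under 0.05 in that direction (1.85% of genes) while 0 passed the adjusted threshold (0.00% of genes, limma). Without the pair, 7 of 8 were positive (52.3% of genes), the median was 0.28 and the single enzyme with an unadjusted p under 0.05 was HMGCS1 (1.57% of genes). The KA minus AA differences had a median of 0.41 and were positive for 8 of 8 enzymes (50.8% of genes), 6 of 8 at an unadjusted p under 0.05 (9.97% of genes) and 0 after adjustment (0.00% of genes). Without the pair that median was 0.17, 8 of 8 stayed positive (53.0% of genes), and LSS alone had an unadjusted p under 0.05 (4.74% of genes). These comparisons share the AA cows.

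**Figure D4:**
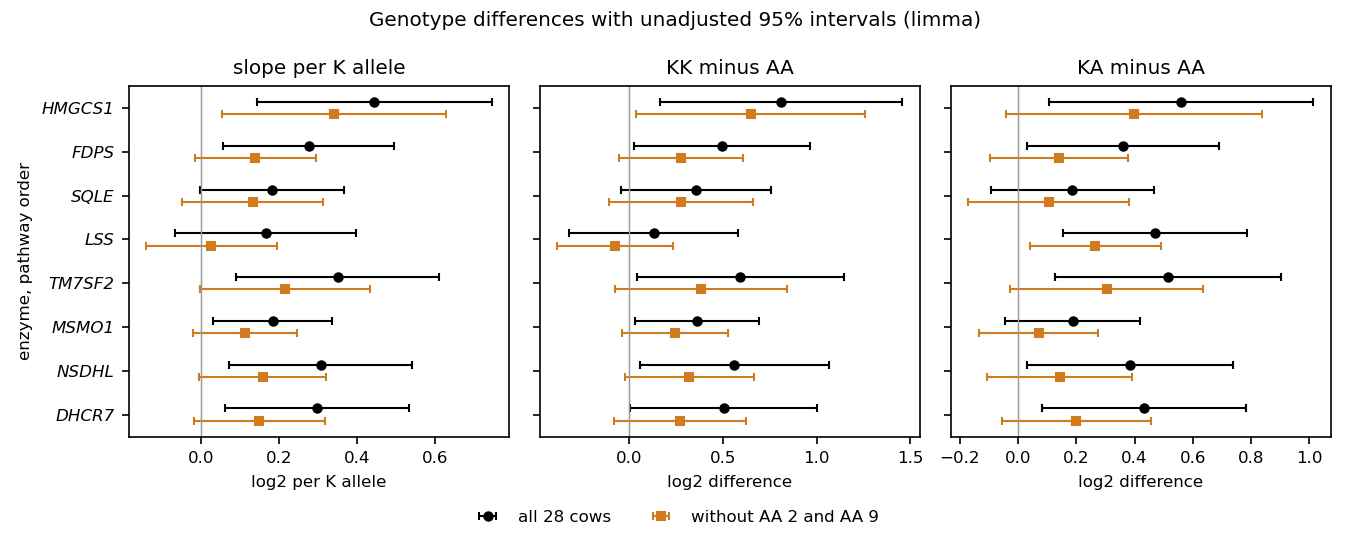
Fitted slope per K allele, KK minus AA difference and KA minus AA difference (x axes, log2) of the 8 enzymes (rows), over all 28 cows (black circles) and without AA 2 and AA 9 (orange squares), with unadjusted 95% intervals from limma. Each orange point lies to the left of its black partner, and the LSS point for KK minus AA passes to the left of 0.

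Without a block or covariate, the difference between KK and KA cows does not use the AA values. The AA cows still enter the estimate of its error. Fitted in this way, the difference was positive for 7 of 8 enzymes (49.7% of genes), from 0.07 to 0.25, with LSS at -0.34. The median was 0.16. With the array number range as a block it was positive for 1 of 8 (56.5% of genes), TM7SF2, and with the block but without the pair it was positive for 4 of 8 (54.7% of genes). With the fibroblast and matrix list mean as a covariate it was positive for 3 of 8 (51.6% of genes), and without KK 2 for 5 of 8 (48.9% of genes). The direction of this difference thus turned with the setting. In the fits with the block or the covariate, however, AA cows also enter the fitted difference itself. Its median with the block was -0.09, and 0.01 when AA 2 and AA 9 were also left out. No enzyme had an unadjusted p under 0.05 over all 28 cows (1.14% of genes were higher and 1.28% lower), and none passed the adjusted threshold (0.00%, limma). When KK and KA cows alone entered the fit, or when AA 2 and AA 9 were left out, 1 of 8, LSS, was lower at an unadjusted p under 0.05 (2.89% and 2.91% of genes). For KA minus the midpoint of KK and AA, 0 of 8 enzymes passed the adjusted threshold over all cows (0.0109% of genes, limma) or without the pair (0.0328% of genes). The KK minus KA interval of HMGCS1, 0.25 with 95% bounds of -0.38 and 0.88, leaves room for a KK mean on either side of the KA mean.

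These medians depended on which arrays entered. Of the 8 KK minus AA differences, 6 had an unadjusted p under 0.05 over all cows, and this count was 0 without KK 1 (0.830% of genes), 0 without KK 2 (1.17%), 3 without KK 3 (2.56%) and 7 without KK 4 (2.15%). The median KK minus AA difference was 0.48, 0.39, 0.49 and 0.62 in the same order. With AA 2 and AA 9 left out as well, the count was 0 without KK 1 (1.52% of genes), 0 without KK 2 (1.37%) and 0 without KK 3 (2.36%), and 5 without KK 4 (2.04%), where the median was 0.40. It was 2 of 8 with the array number range as a block (1.51% of genes) and 1 of 8 when KK and AA cows alone entered the fit (0.874% of genes). KK 4 also had the highest value of the 4 KK cows for T and natural killer cell genes (0.74 on average over 8 genes), B and plasma cell genes (0.95 over 4) and myeloid genes (0.95 over 8), and their part in its enzyme values was not tested. Without KK 2 and the pair, the KK minus AA median was 0.18. Among array numbers 29 to 42 the KK minus AA median was 0.39, and 0.25 without AA 2.

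Among array numbers 43 to 56, where 11 KA cows face 3 AA cows, AA 9 and AA 10 are 2 of those 3. There the KA minus AA median was 0.71 and 4 of 8 enzymes passed the adjusted threshold as higher in KA (2.72% of genes, limma), namely HMGCS1 with 1.12, SQLE with 0.63, LSS with 0.66 and NSDHL with 0.77. Without AA 9 the median was 0.41 and 0 of 8 passed (0.0437% of genes, limma), with 3 of 8 at an unadjusted p under 0.05 (5.20% of genes). Among numbers 29 to 42, where 2 KA cows face 8 AA cows, the median was 0.16, and 0.019 without AA 2. With both number ranges as a block over all cows, the median KK minus AA difference was 0.46, the KA minus AA difference 0.49 and the KK minus KA difference -0.09.

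Fibroblast and matrix genes had slopes of the opposite sign. Their list mean had a median of -0.37 in KK cows, -0.01 in KA cows and 0.05 in the 9 AA cows. Over all 28 cows 10 of 11 slopes were negative, while 50.0% of all genes had a positive slope. Of the 11, 8 were lower at an unadjusted p under 0.05 (5.22% of genes), and the median slope was -0.37. Without AA 2 and AA 9, 11 of 11 were negative, while 53.4% of all genes had a positive slope. The median there was -0.16 and 1 of 11 had an unadjusted p under 0.05 (1.56% of genes). With this list mean as a covariate, the enzyme medians were 0.09 for the slope, 0.16 for KK minus AA, 0.19 for KA minus AA and -0.02 for KK minus KA. Under that covariate 0 of 8 enzymes had an unadjusted p under 0.05 for a positive slope (2.67% of genes) and 0 of 8 for KK minus AA (5.29% of genes), against 6 of 8 for each without it. Milk fat globule genes had positive slopes in 8 of 8 cases over all cows (50.0% of genes) and without AA 2 and AA 9 (53.4%). Their medians were 0.46 and 0.06. At an unadjusted p under 0.05, 2 of 8 were higher over all cows (4.29% of genes) and 1 of 8 without the pair (1.64%). Luminal epithelium genes had 7 of 8 negative slopes over all cows and 6 of 8 without the pair, with medians of -0.13 and -0.06. Of these 8, 2 were lower at an unadjusted p under 0.05 (5.22% of genes), and 0 without the pair (1.56%). The fibroblast covariate was fitted over all 28 cows, where AA 2 (1.22) and AA 9 (1.69) lay above the others (-0.53 to 0.41). Its effect therefore cannot be told apart from that of this pair. The part of tissue makeup in the enzyme values was not tested.

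The other enzymes of the pathway had a lower median slope, but both lists were chosen with earlier results of these data known. Of the 13 other enzymes listed, 7 were measured, and 0 of 7 passed the adjusted threshold for the slope (limma). Of these 7, 1 was of the bright class, against 5 of the 8 enzymes. All 7 slopes were positive over all cows (50.0% of genes), with a median of 0.12, and 2 had an unadjusted p under 0.05 (4.29% of genes): CYP51A1, the lanosterol demethylase, with 0.25 ± 0.10 per K allele, and PMVK, the kinase that makes mevalonate diphosphate, with 0.27 ± 0.11 (adjusted p = 0.526 for both). Without AA 2 and AA 9 these slopes were 0.17 ± 0.09 and 0.13 ± 0.07, the median of the 7 was 0.05 and 0 of 7 had an unadjusted p under 0.05. ACAT2, the thiolase that supplies acetoacetyl-CoA, had a slope of 0.02, and MVK, the first mevalonate kinase, 0.08. MVD, which makes isopentenyl diphosphate, had 0.16, FDFT1, the squalene synthase, had 0.11, and EBP, the sterol isomerase before DHCR7, had 0.12. Their slopes without the pair were 0.05, 0.05, 0.02, 0.13 and 0.02 in that order.

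Among 12 measured genes of sterol sensing, 0 passed the adjusted threshold (0.00% of genes, limma). Over all cows 10 of 12 slopes were positive (50.0% of genes) and the median was 0.09. Without the pair 7 of 12 were positive (53.4% of genes) and the median was 0.02. INSIG1, the sterol-dependent anchor of the regulatory proteins and itself a target of them, had a slope of 0.54 ± 0.20 per K allele (adjusted p = 0.526) and 0.27 ± 0.12 without the pair. SREBF1, the family member tied most closely to fatty acid synthesis, had 0.35 ± 0.13 and 0.18 ± 0.09. MBTPS1, the protease that makes the first cut in activating them, had -0.16 ± 0.08 and -0.07 ± 0.06, and the other member, SREBF2, chosen here after its values were seen because it acts mainly on cholesterol genes, had 0.13 ± 0.08 and 0.03 ± 0.06. In 10 genes of the isoprenoid branches the median slope was 0.01 over all cows and 0.04 without the pair, and COQ2, of ubiquinone synthesis, had 0.30 ± 0.10 and 0.18 ± 0.08. In 11 genes of cholesterol uptake, storage and export the median was 0.08 and 0.03, and NPC2, a carrier of cholesterol out of lysosomes, had 0.18 ± 0.08 and 0.12 ± 0.07.

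Besides the genotype comparisons, the enzymes varied together from cow to cow. This was examined over the 26 cows without AA 2 and AA 9, since a separate pair would carry any correlation, and 32 pairs of probe sets were tested (permutation tests with 100000 resamples, Benjamini-Hochberg over the 32). Of the 28 pairs of enzymes, 28 had a positive r, as had 51.0% of all pairs among the 9155 genes, and 21 passed an adjusted p of 0.05. These were the 21 pairs without LSS, with r from 0.43 to 0.81 and a median of 0.65, where 6.65% of all gene pairs had an r at or above the lowest of them, and 18 of them also passed by Spearman's rho. The permutations shuffled cows across genotypes. Within genotypes, that is after subtracting each genotype's mean, the same pairs had r from 0.37 to 0.80, and these values were not tested. The 7 pairs with LSS, all on its probe set Bt.22285.2.S1_at, had r from 0.09 to 0.39 and 0 passed. The other LSS probe sets were not tested against the other enzymes.

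The closest pair was SQLE and NSDHL, with r = 0.81 and rho = 0.82 over 26 cows (permutation p = 1e-05 for both, the smallest that 100000 resamples can give, adjusted p = 8e-05 for r). HMGCS1 and MSMO1 had r = 0.79 and rho = 0.75, and FDPS and MSMO1 had r = 0.76 and rho = 0.77. Leaving out the 2 cows farthest from the median of the first enzyme left r between 0.29 and 0.75 for the 21 pairs. The weakest of them, TM7SF2 with MSMO1, had r = 0.43 and rho = 0.31, and 0.29 without those 2 cows, so that relation rests in part on them. Over all 28 cows the pairs without LSS had r from 0.57 to 0.89 and those with LSS from 0.39 to 0.71.

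**Figure D5:**
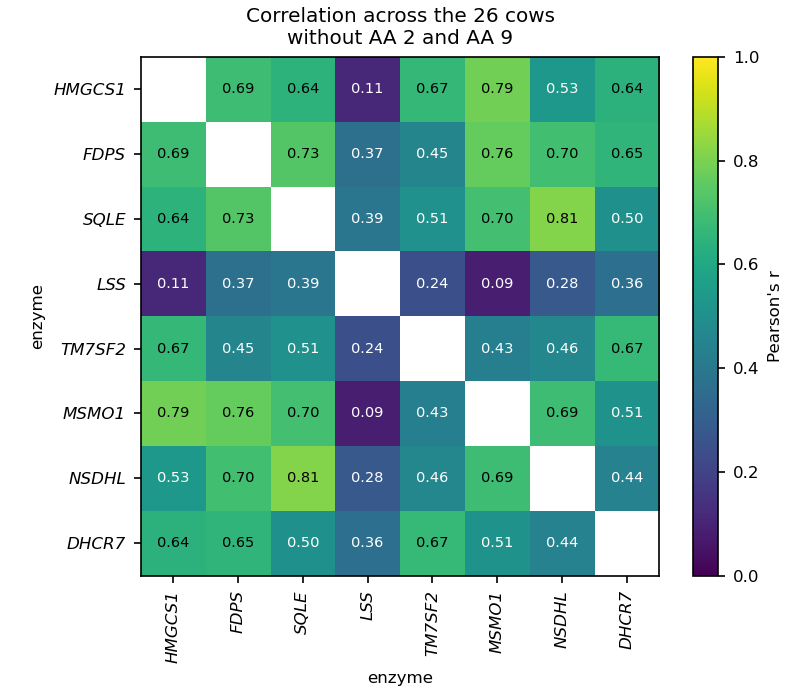
Pearson's r (colour and number) between the values of 2 enzymes over the 26 cows without AA 2 and AA 9, for 8 enzymes in pathway order on both axes. The LSS row and column, read on Bt.22285.2.S1_at alone, stand out with r from 0.09 to 0.39, against 0.43 to 0.81 elsewhere.

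Outside the list, the genes whose values were most like the mean of the 8 enzymes, each scaled to an SD of 1, were found by Pearson's r over the same 26 cows among 9147 other genes, of which 1.43% had r above 0.5. The first was CYP51A1 with r = 0.84 and the second INSIG1 with r = 0.83, both in the group of sterol-regulated genes described above. ANXA5, a phospholipid-binding annexin, had r = 0.76, SUCLG1, a subunit of succinyl-CoA ligase, had 0.75, and BCKDHA, a subunit of the branched-chain keto acid dehydrogenase, also had 0.75. PCYT2, of phosphatidylethanolamine synthesis, had r = 0.75, ACSS2, the cytosolic synthetase that makes acetyl-CoA from acetate, had 0.73, CYB5B, a mitochondrial cytochrome b5, had 0.69, and GCAT, of threonine breakdown, had 0.69. LOC107132045 had r = 0.74, yet ranked 3630th of these genes over 28 cows, with r = 0.18.

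PCYT2 had a slope of 0.28 ± 0.09 per K allele over all cows and 0.16 ± 0.06 without the pair, and ACSS2 had 0.60 ± 0.24 and 0.21 ± 0.09 (SE). At the other end stood DZIP3 (r = -0.67), SIRPA (-0.65) and RNF20 (-0.64). FDFT1 ranked 54th with r = 0.58, whereas SREBF2 had r = 0.39 and SREBF1 r = 0.33. These correlations are descriptions over cows that share a tissue and a laboratory. The enzyme mean, here without scaling, also went with the list means of milk fat globule genes (r = 0.50) and milk protein genes (r = 0.38). Its r was -0.29 with luminal epithelium genes and -0.19 with fibroblast and matrix genes.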

How the data were processed

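The deposited table holds log2 values of 28 arrays by probe set, made by the authors with Bioconductor 2.7 in R 2.13 per the labels' protocols. RMA and GCRMA are named in the submitters' processing notes, and which of them gave the deposited log2 values, and how the baseline was subtracted, are not given in the sources used here. Of 24128 probe sets 112 were controls and left out. Gene symbols came from the platform annotation (13292 probe sets with 1 symbol, 86 with several, 10638 with none).

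Signal class was read from the steps at which single-precision values are rounded, and of a gene's several probe sets the one of the brightest class was used, ties going to the plainest suffix and then to the first identifier. No level filter was possible. With limma's lmFit and eBayes (version 3.58.1, R 4.3.3) the number of K alleles, or 1 mean per genotype, was fitted to all probe sets, with Benjamini-Hochberg adjustment over 24016 and a threshold of 0.05. The fit was also run on simulated data with independent normal noise, as a check of the code. That simulation had no outlying arrays and no link of genotype with array number, so it does not bear on either. Correlations used scipy 1.17.1. Spread between arrays covers separate animals, and the number of arrays limits precision.

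The enzymes and the other gene lists were chosen with earlier results of these data known. Named genes are the enzymes, all measured members of the remaining pathway, at most 4 of each other sterol list by the smallest slope p, and the 10 most like and 3 least like the enzyme mean. Alternatives left out arrays, changed the normalization, the probe set, the spread estimate or the covariates, or used the array number.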

Additional observations from a re-analysis of the deposited data

How the results depend on the processing

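No paired analysis was possible because each cow has her own array number and the labels give the genotypes no shared replicate numbers. None of the 8 enzymes passed the threshold in any comparison under any alternative except with array numbers 43 to 56 only, where 4 passed for the slope and for KA minus AA, which are the same contrast there, and the median slope was 0.71. With numbers 29 to 42 without AA 2, an alternative chosen after seeing the data, the median KA minus AA difference was 0.019. The medians without a KK cow ran from 0.26 to 0.34 for the slope, from 0.39 to 0.62 for KK minus AA and from 0.05 to 0.29 for KK minus KA, and, also without AA 2 and AA 9, from 0.11 to 0.19 and from 0.18 to 0.40 for the slope and KK minus AA. Without AA 2, AA 9 and AA 10, chosen after seeing the data, they were 0.12, 0.25 and 0.15 for the slope, KK minus AA and KA minus AA. Quantile normalization gave 0.22, 0.41 and 0.28, and array weights 0.16, 0.31 and 0.22. With the difference between 3′ and 5′ control probe sets as a covariate they were 0.29, 0.50 and 0.42. Of the 10 genes most like the enzyme mean, 6 remained over all 28 arrays and 7 by Spearman's rho.

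Some values that passed no test changed sign, and the cause was not tested. The KK minus AA difference of LSS was -0.072 without AA 2 and AA 9, -0.083, -0.091 and -0.12 when KK 1, KK 2 or KK 4 was also left out, -0.051 with the number block as well, -0.11 with numbers 29 to 42 without AA 2, -0.078 without AA 2, AA 9 and AA 10, -0.26 with the fibroblast covariate and -0.030 with array weights. The LSS slope was -0.055 with numbers 29 to 42 without AA 2 and -0.041 with the fibroblast covariate. The KA minus AA difference of SQLE was -0.033 with numbers 29 to 42, and without AA 2 there SQLE had -0.065, LSS -0.056, TM7SF2 -0.076 and DHCR7 -0.0067. Of the KK minus KA differences, 7 of 8 were positive over all cows, 1 with the number block, 4 with the block without AA 2 and AA 9, 3 with the fibroblast covariate and 5 without KK 2, and that of HMGCS1 was -0.20 with the number block and -0.072 when AA 2 and AA 9 were also left out. The slope of EBP was -0.016 without KK 2, AA 2 and AA 9, -0.19 with numbers 43 to 56 without AA 9 and -0.036 with the fibroblast covariate. With that covariate MVD had -0.076 and SREBF2 -0.0036, MVD had -0.0020 with numbers 29 to 42 without AA 2, and PMVK -0.036 with numbers 43 to 56 without AA 9. An intensity trend could not be fitted without levels.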
